A study of Rattus norvegicus with 3 samples.

Results

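Integrin subunits and leukocyte adhesion molecules were followed in whole kidney RNA of 3 male rats, and 31 of the 20667 genes on the array made up the group. They were taken by gene symbol: 18 integrin alpha chains, 8 integrin beta chains, Icam1, Icam2 and Vcam1, and the selectins Sele and Selp. Each was found on a probe set that named only that gene. The arrays held 1 rat on day 5 of ethylene glycol (EG), 1 rat on day 2 of EG and 1 control rat, all on Clariom S rat arrays. EG, an antifreeze solvent that the body turns into oxalate, was given by mouth at 8 g/kg. The labels do not say clearly whether it was dosed once or daily, and they give no strain, age or vehicle. By the study's design a group was 1 rat, although the deposited columns are headed as averages and do not say of what. Variation among rats was not measured, no test was made, and every difference describes these 3 arrays only.

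Integrins are receptors made of 1 alpha and 1 beta chain that tie a cell to its matrix or to another cell. Chains such as Itga3, Itga6 and Itgb1 anchor kidney epithelium to laminin, whereas chains that pair with Itgb2 are made by leukocytes. Leukocytes leave the blood by rolling on selectins and then holding on to ICAM and VCAM through their integrins. Some integrins also bind soluble proteins, fibrinogen and the complement fragment iC3b among them, both of interest to this study by its title.

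Values are the deposited log2 signals. A gene counted as measured if its signal came to 5.34 log2 or more on any array. This background level cuts off the top 5% of signals of 1060 olfactory receptor genes, which kidney is assumed not to use. Measured members numbered 24 of 31, against 13546 of 20667 genes in the series. Values under the level were set to it, so a difference with 1 side under it is a lower bound. Signals of different genes come from different probes, and those of different members were not set against each other.

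**Figure D1:**
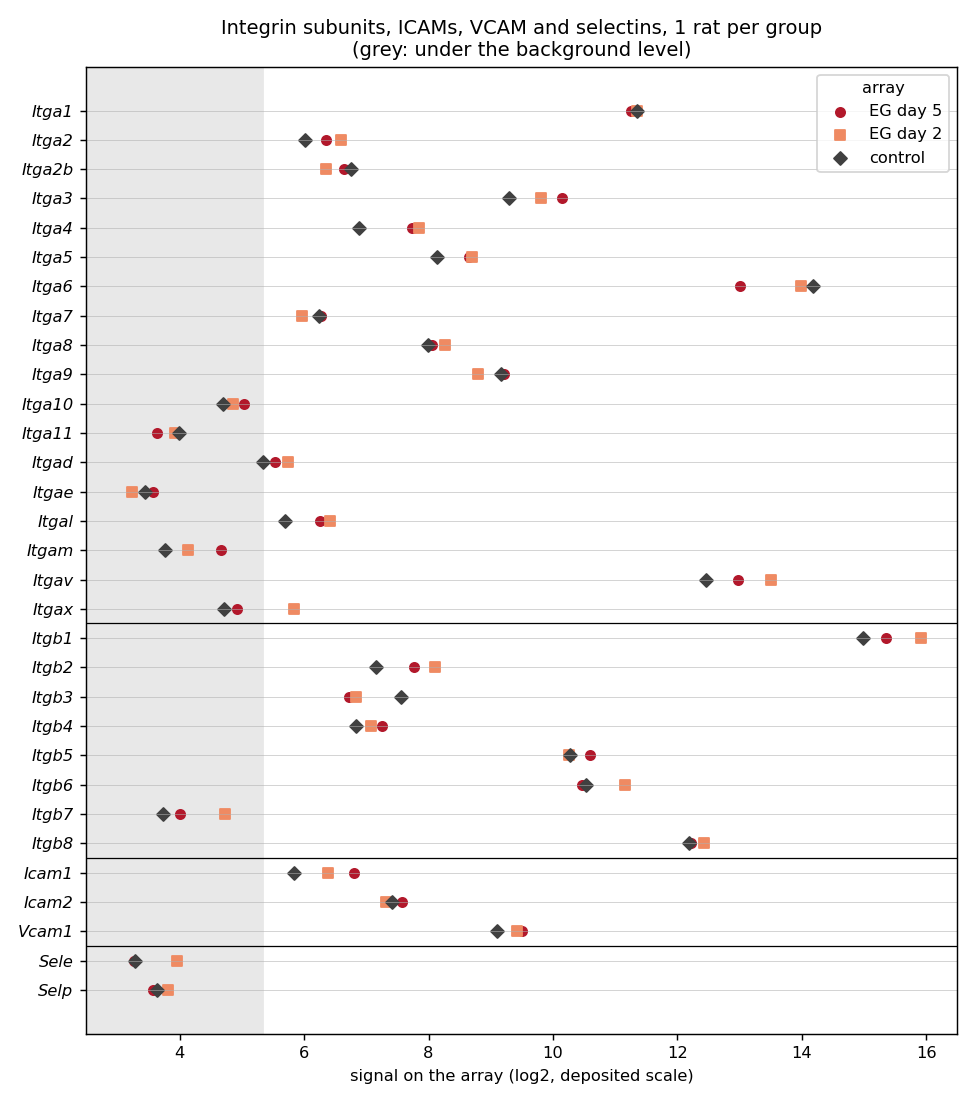
Deposited log2 signal (horizontal axis) of each of the 31 members on the EG day 5 (circle), EG day 2 (square) and control (diamond) arrays, 1 rat per array; the grey zone lies under the background level of 5.34 log2. Most symbols of a gene lie close together, with Itga6 lowest on the EG day 5 array and Itgav highest on the EG day 2 array; nearly equal values hide each other, as for Sele on the EG day 5 and control arrays.

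As a group, these receptors and ligands differed little between the arrays. On the EG day 5 array 0 of the 24 members lay 2-fold or more above the control and 1 lay 2-fold or more below it (Itga6). Over all measured genes those shares were 4.75% higher and 3.62% lower. At EG day 2, 1 of 24 was at least 2-fold higher (Itgav), against 4.45% of all measured genes. None of the 24 was at least 2-fold lower at EG day 2, against 2.45% of all measured genes. These counts do not set the members apart from the background shares.

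Smaller differences leaned upward. The median difference of the measured members from the control was 0.26 log2 at EG day 5, against 0.01 over all measured genes. At EG day 2 it was 0.36 log2, against 0.05. Members above the control numbered 18 of 24 at EG day 5 (75%), beside 50.6% of all measured genes, and 16 of 24 at EG day 2 (66.7%), beside 54.2%. The EG day 5 count includes Itga7, Itgb8, Itga9 and Itga8, which were only 0.04, 0.04, 0.06 and 0.07 log2 above the control. With arrays centred on their medians, each of these genes fell just below the control at EG day 5. A threshold of 1.5-fold, chosen after the values were seen, gave 4 of 24 members higher at EG day 5, against 15.1% of all measured genes, and 6 of 24 at EG day 2, against 14.8%. At least 1.5-fold lower were 2 members at EG day 5 (Itga6 and Itgb3), against 12% of all measured genes, and 1 at EG day 2 (Itgb3), against 9.18%. Both EG arrays were compared with the same control array, so their differences share its error.

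**Figure D2:**
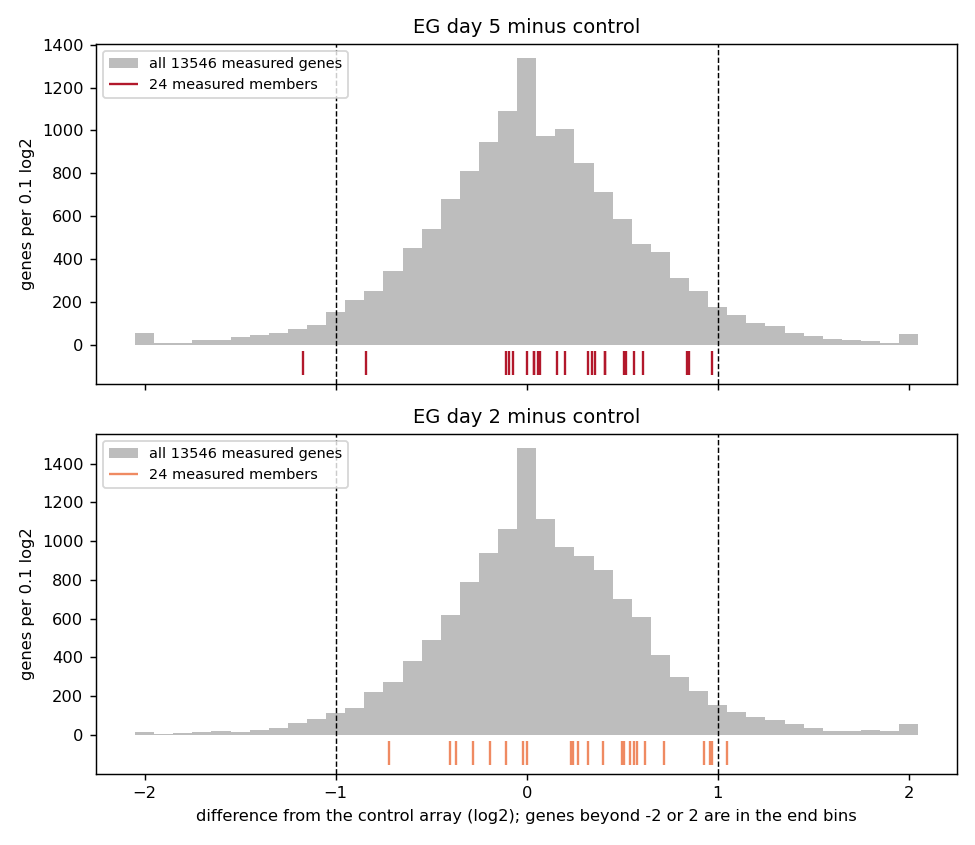
Histograms of the log2 difference from the control array for all 13546 measured genes (grey, genes per 0.1 log2), with the 24 measured members as ticks under each; the EG day 5 array is above the EG day 2 array and dashed lines mark 2-fold. The ticks lie mostly to the right of 0, with 1 tick beyond the lower line at EG day 5 and 1 beyond the upper line at EG day 2.

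The laminin receptors of epithelium gave the only member at least 2-fold lower. Itga6, whose protein pairs with the Itgb1 and Itgb4 chains and binds laminin under epithelial cells, had 13.01 log2 on the EG day 5 array, 13.99 on the EG day 2 array and 14.18 on the control array. The EG day 5 array stood apart below the other two. The difference from the control was -1.17 at EG day 5 (2.25-fold lower) and -0.19 at EG day 2, and 2.32% of all measured genes lay as far below the control as Itga6 at EG day 5.

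Itga3, the laminin receptor chain of podocytes and tubules, went the other way. It had 10.14 log2 at EG day 5, 9.81 at EG day 2 and 9.30 in the control, differences of 0.84 and 0.51 that stayed under 2-fold. Itgb4, the hemidesmosome partner of Itga6, had 7.25 at EG day 5, 7.07 at EG day 2 and 6.84 in the control. Itga7, a laminin receptor chain of muscle, had 6.28, 5.96 and 6.24 log2 in that order of arrays, with the lowest value at EG day 2. The laminin receptor chains thus showed no common direction. On the same arrays 7 of 12 proximal tubule markers were at least 2-fold lower at EG day 5 and 7 of 12 at EG day 2. Over all measured genes those shares were 3.62% and 2.45%. The part of the proximal tubule in the Itga6 value was not tested.

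Receptor chains for fibronectin, vitronectin and osteopontin (the proteins with an RGD motif) held the only member at least 2-fold higher. Itgav, the alpha chain shared by several beta partners, had 12.98 log2 on the EG day 5 array, 13.51 on the EG day 2 array and 12.46 on the control array. Both EG arrays were above the control. The difference was 0.52 at EG day 5 and 1.05 at EG day 2 (2.07-fold), and 3.88% of all measured genes lay as far above the control as Itgav at EG day 2.

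Itgb1, the beta chain with the most alpha partners, followed the same order of arrays, with 15.35 log2 at EG day 5, 15.92 at EG day 2 and 14.99 in the control. Its difference of 0.93 at EG day 2 (1.91-fold) fell just short of 2-fold, and that at EG day 5 was 0.36. Signals this bright lie in the upper part of the deposited scale (highest value 19.93), where differences can be compressed or stretched. Itgb6, an epithelial partner of Itgav that activates latent TGF-beta, had 10.46 at EG day 5, 11.15 at EG day 2 and 10.53 in the control, so only the EG day 2 array was higher (0.62).

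Itgb8, another partner that activates latent TGF-beta, was the only member with more than 1 probe set. Its brighter set gave 0.04 above the control at EG day 5 and 0.24 at EG day 2, its dimmer set 0.27 and 0.82. The 2 sets therefore disagree on the size at EG day 2. Itgb5, the vitronectin receptor partner, had 10.60 at EG day 5, 10.26 at EG day 2 and 10.28 in the control.

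Itgb3, which joins Itgav or the platelet chain Itga2b to bind fibrinogen, was the member below the control by over 1.5-fold on both EG arrays. It had 6.72 log2 at EG day 5, 6.84 at EG day 2 and 7.56 in the control, differences of -0.84 and -0.72. Itga2b had 6.64 at EG day 5, 6.35 at EG day 2 and 6.75 in the control. Of the beta partners of Itgav, Itgb1 was above the control on both EG arrays and Itgb3 was below it on both. The others each lay close to the control on 1 EG array, so no direction is read there. These were Itgb8 (brighter set, 0.04 at EG day 5), Itgb5 (-0.02 at EG day 2) and Itgb6 (-0.07 at EG day 5). Of 8 platelet markers, 2 reached the background level at EG day 5, 2 at EG day 2 and 1 in the control. Gp5 (5.94, 5.84 and 6.51) reached it on every array and was below the control on both EG arrays (-0.57 and -0.67). Gp6 (5.57, 5.77 and 4.89) reached it on the EG arrays only. Pf4 (4.87, 4.48 and 4.07) and Ppbp (3.75, 3.83 and 3.69) were under it on every array. The part of platelets in the Itgb3 and Itga2b values was not tested.

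Itga5, the main fibronectin receptor chain, had 8.65 log2 at EG day 5, 8.70 at EG day 2 and 8.14 in the control, or 0.51 and 0.56 above it. Itga8, a receptor chain of mesangial cells that guides kidney development, had 8.06, 8.26 and 7.99 in that order of arrays. Itga9, which binds tenascin-C and VCAM, had 9.22, 8.79 and 9.16. Only Itga5 of these lay above the control by a similar amount on both EG arrays.

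Of the collagen receptor chains, Itga1 and Itga2 were measured. Itga1 had 11.26 log2 at EG day 5, 11.35 at EG day 2 and 11.35 in the control. Itga2 had 6.36, 6.60 and 6.02, or 0.34 and 0.58 (1.49-fold) above the control, whereas Itga1 stayed within 0.09 of it. Itga10 (5.03, 4.86 and 4.69) and Itga11 (3.63, 3.92 and 3.99) were under the background level on every array and have no fold.

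**Figure D3:**
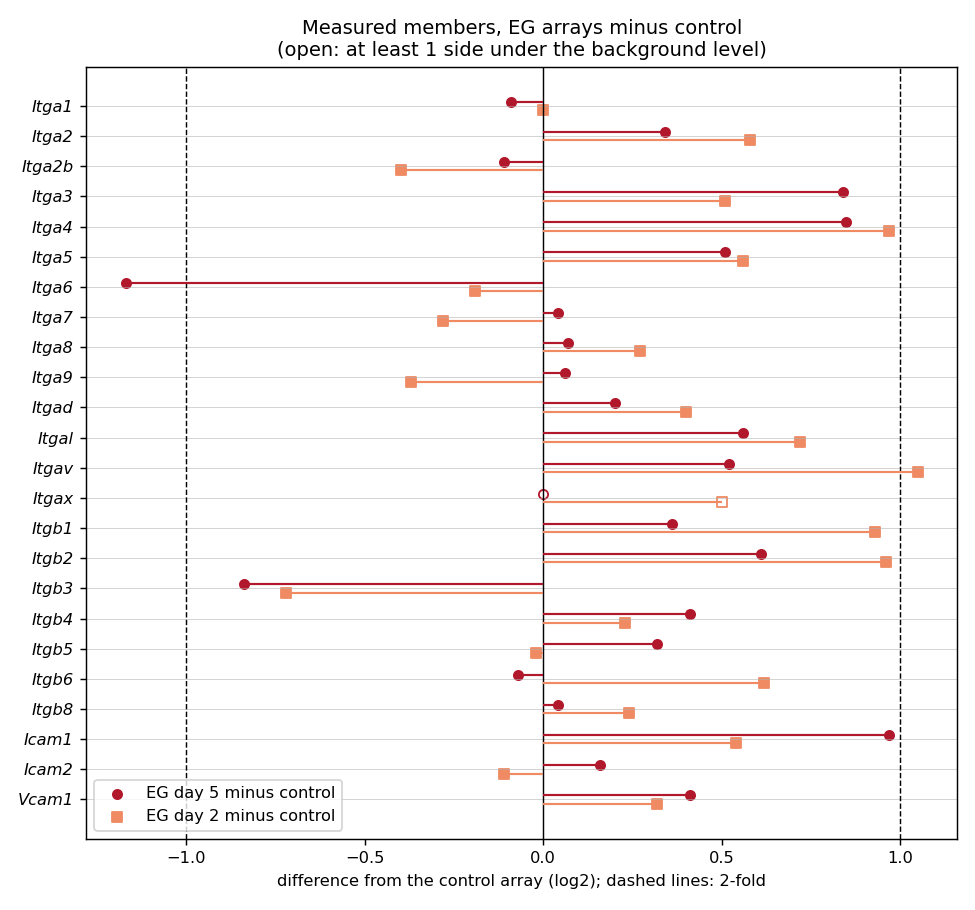
Log2 difference from the control array of each of the 24 measured members, for EG day 5 (circles, upper) and EG day 2 (squares, lower); dashed lines mark 2-fold, and open symbols have at least 1 side under the background level. Only Itga6 at EG day 5 (-1.17) and Itgav at EG day 2 (1.05) cross a dashed line.

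The leukocyte integrin chains Itgb2, Itgal and Itga4 were higher on both EG arrays than in the control, by less than 2-fold. Itgb2, the beta chain that marks leukocytes, had 7.76 log2 at EG day 5, 8.11 at EG day 2 and 7.15 in the control. The differences were 0.61 and 0.96 (1.53-fold and 1.95-fold). Itgal, which joins Itgb2 to form LFA-1, the ICAM receptor, had 6.25 at EG day 5, 6.41 at EG day 2 and 5.69 in the control, differences of 0.56 and 0.72. Itga4, which pairs with Itgb1 to bind VCAM and fibronectin, had 7.73, 7.85 and 6.88 in that order of arrays, differences of 0.85 and 0.97. All 3 chains had their highest value on the EG day 2 array and their lowest in the control.

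The other Itgb2 partners gave signals close to or under the background level. Itgam, the CD11b chain of macrophages and neutrophils that binds iC3b and fibrinogen, had 4.66 log2 at EG day 5, 4.13 at EG day 2 and 3.77 in the control, under the level throughout. Itgax, the CD11c chain, reached the level only on the EG day 2 array (5.84, against 4.71 in the control), at least 1.41-fold higher, and had 4.92 at EG day 5. Itgad had 5.54 at EG day 5, 5.74 at EG day 2 and 5.34 in the control, the last equal to the level itself. Genes of these 3 chains are close relatives, so their probes can share signal.

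Itgb7 (4.01 log2 at EG day 5, 4.73 at EG day 2 and 3.73 in the control) and Itgae (3.58, 3.23 and 3.45), which together form a receptor of lymphocytes within epithelia, were under the level on all arrays. A signal under the level does not show that the transcript is absent.

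Macrophage and monocyte markers were also higher on both EG arrays. Of 17 markers, 11 were higher by 2-fold or more at EG day 5, beside 4.75% of all measured genes, and 12 at EG day 2, beside 4.45%. On either array 0 were lower by 2-fold or more, beside 3.62% of all measured genes at EG day 5 and 2.45% at EG day 2. Adgre1 was above the control at EG day 5 (1.87) and below it at EG day 2 (-0.26). Their median differences were 1.41 and 1.19 log2, and the log2 of their summed signal was 17.3 at EG day 5, 17.0 at EG day 2 and 15.4 in the control. That sum is mostly Lyz2 (lysozyme), which alone had 17.18 at EG day 5, 16.91 at EG day 2 and 15.24 in the control. Of 10 neutrophil markers 1, 1 and 2 reached the background level on the EG day 5, EG day 2 and control arrays, with S100a8 and S100a9 under it on every array. Of 11 T and NK cell markers 2, 1 and 5 reached the level on the EG day 5, EG day 2 and control arrays. In the control Gzma (5.35), Prf1 (5.36) and Gzmb (5.40) were barely above the level. Cd3e, a defining T cell marker, was under it on every array, while Cd4, which rat macrophages also make, had 10 log2 at EG day 5, 7.87 at EG day 2 and 7.99 in the control. In whole kidney, more cells of a type and more RNA per cell cannot be told apart. The part of macrophage number in the Itgb2, Itgal and Itga4 values was not tested.

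Among the ICAM and VCAM ligands, Icam1 had the largest difference. Whole kidney RNA does not show which cells gave these signals. Icam1, the inducible ligand of LFA-1, had 6.81 log2 on the EG day 5 array, 6.38 on the EG day 2 array and 5.84 on the control array. Both EG arrays were above the control, by 0.97 at EG day 5 (1.96-fold) and 0.54 at EG day 2 (1.45-fold), and 5.17% of all measured genes lay as far above it at EG day 5.

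Vcam1, the ligand of the Itga4 receptor and also a gene of injured tubules, had 9.51 at EG day 5, 9.42 at EG day 2 and 9.10 in the control, differences of 0.41 and 0.32. Icam2, which endothelium makes without induction, had 7.58, 7.31 and 7.42, so the EG arrays fell on either side of the control. Sele (3.27 at EG day 5, 3.96 at EG day 2 and 3.28 in the control) and Selp (3.57, 3.82 and 3.64), the selectins of activated endothelium, were under the background level on every array. The endothelial marker list had median differences of 0.11 (EG day 5) and 0.01 (EG day 2), with 1 of 11 markers at least 2-fold higher at EG day 5 and 0 at EG day 2. Those counts lie near the shares of all measured genes (4.75% and 4.45%).

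Promoter sequences are shown for the member at least 2-fold higher (Itgav), its partner Itgb1, the ICAM or VCAM ligand with the largest difference (Icam1) and the related Vcam1. Each run is the 250 bases before the gene start, 5′ to 3′, from RefSeq on build GRCr8, whose table held 22 of the 31 members. Capitals mark GGGCGG (the GC box), TATAAA (the TATA box) and CCAAT (the CCAAT box), each searched on both strands. The windows are chr3:89245132-89245381 (+ strand) for Itgav, chr19:73602027-73602276 (+) for Itgb1, chr8:27829595-27829844 (+) for Icam1 and chr2:206742784-206743033 (− strand) for Vcam1.
Itgav: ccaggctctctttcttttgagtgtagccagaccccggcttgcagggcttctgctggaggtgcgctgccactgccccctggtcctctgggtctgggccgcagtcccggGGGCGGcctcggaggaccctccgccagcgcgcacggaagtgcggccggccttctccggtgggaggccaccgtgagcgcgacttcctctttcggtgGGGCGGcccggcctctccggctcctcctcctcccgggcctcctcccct
Itgb1: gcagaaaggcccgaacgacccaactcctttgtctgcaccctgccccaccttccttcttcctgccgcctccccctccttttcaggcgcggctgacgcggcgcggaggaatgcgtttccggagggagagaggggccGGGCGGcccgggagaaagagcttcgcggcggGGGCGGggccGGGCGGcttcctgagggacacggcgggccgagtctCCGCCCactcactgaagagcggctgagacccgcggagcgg
Icam1: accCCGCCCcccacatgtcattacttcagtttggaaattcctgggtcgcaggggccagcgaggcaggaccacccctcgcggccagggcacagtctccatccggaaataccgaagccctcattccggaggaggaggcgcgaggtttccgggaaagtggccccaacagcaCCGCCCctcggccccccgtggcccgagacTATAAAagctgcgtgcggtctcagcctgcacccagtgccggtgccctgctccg
Vcam1: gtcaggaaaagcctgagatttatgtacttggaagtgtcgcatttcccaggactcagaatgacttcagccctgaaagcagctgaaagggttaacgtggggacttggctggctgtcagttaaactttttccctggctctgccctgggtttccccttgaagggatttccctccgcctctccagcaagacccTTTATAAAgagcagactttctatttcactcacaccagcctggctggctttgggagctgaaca

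Itgav had 2 GC boxes and Itgb1 had 4, and neither had a TATA box. Icam1 had 2 GC boxes and 1 TATA box, with no overlap. Vcam1 had 0 GC boxes and 1 stretch in which TATA box matches on both strands overlapped. None of these 4 windows held a CCAAT box. G and C made up 72% of the Itgav window, 71.2% of that of Itgb1, 66% of that of Icam1 and 50.4% of that of Vcam1, against a median of 51.2% over all promoters. Of 33469 promoter windows of this length, 30.5% held a GC box, 12.9% a TATA box and 34.0% a CCAAT box. Of the 22 member windows 10 held a GC box, 3 a TATA box and 3 a CCAAT box. A match describes the letters and is not evidence that a factor binds there.

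Among the matrix and plasma proteins that integrins bind, a larger share of genes differed by 2-fold. Of 31 measured ligand genes 12 were at least 2-fold higher at EG day 5 and 9 at EG day 2, beside the shares of all measured genes given above. At least 2-fold lower were 0 on either array. The median ligand difference was 0.70 log2 at EG day 5. At EG day 2 it was 0.36, which equals the member median there. The list holds fibrinogen chains and C3, which the title of the study concerns, and also Tgfb1, Tgfb2, Tgfb3 and Ltbp1. Earlier results of these data were known when the list was drawn up. The difference between ligands and receptors was not tested.

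At EG day 5 the ligands farthest from the control were Spp1 (osteopontin, bound by Itgav receptors), Fn1 (fibronectin), Col3a1 and Col1a1. Spp1 had 18.43 log2 at EG day 5, 18.43 at EG day 2 and 11.87 in the control. Fn1 had 14.55, 13.58 and 12.04 in that order of arrays. Col3a1 had 12.69, 10.66 and 10.33, and Col1a1 11.88, 9.98 and 9.71. The 2 collagens were thus high only on the EG day 5 array, whereas the collagen receptor chains Itga1 and Itga2 were at -0.09 and 0.34 from the control there. The Spp1 signals on both EG arrays lie close to the highest deposited value (19.93), so the size of that difference is uncertain.

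At EG day 2 the fibrinogen chains Fga and Fgb led the ligands, followed by Spp1 (6.56 above the control) and the third chain, Fgg. Fga had 9.84 log2 at EG day 5, 16.49 at EG day 2 and 7.72 in the control, and Fgb had 8.16, 13.83 and 6.06. Fgg had 5.39, 9.73 and 4.12, the control under the background level, so it was at least 21-fold higher at EG day 2. On that array the fibrinogen receptor chains Itgb3 and Itga2b were below the control, Itgam was under the background level and Itgav was above the control. Itgb2, the beta partner of Itgam, was also above the control there (0.96), and its other partner Itgax reached the level only there (5.84 log2). Tgfb1, also on the ligand list, had 9.01 at EG day 5, 8.67 at EG day 2 and 7.76 in the control. It was among the ligand genes at least 2-fold higher at EG day 5 (1.25). Tgfb1 was named after its values were seen because the Itgb6 and Itgb8 receptors activate its product.

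Of 37 measured genes that link integrins to the cytoskeleton or switch them on, 3 were higher by 2-fold or more at EG day 5 (8.11%, against 4.75% of all measured genes) and 4 at EG day 2 (10.8%, against 4.45%). On either array 0 were lower by 2-fold or more. At 1.5-fold the higher genes numbered 13 at EG day 5 (35.1%, against 15.1%) and 10 at EG day 2 (27.0%, against 14.8%). Their EG day 5 median was 0.21, and their EG day 2 median was 0.33. Actn1 (alpha-actinin) was higher by 1.13 and 1.32, and Flna (filamin A) by 1.00 and 1.10. Cd9, a tetraspanin that associates with integrins, was higher by 1.38 at EG day 5 and 0.36 at EG day 2. Tes (testin) and Rsu1, a partner of the adhesion protein PINCH, were higher at EG day 2 by 1.10 and 1.00. Flna at EG day 5 and Rsu1 at EG day 2 lay exactly at the 2-fold limit, so the 2-fold counts rest on few genes.

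Among 20 other measured genes of leukocyte adhesion, 2 lay 2-fold or more above the control at EG day 5 (10%, against 4.75% of all measured genes) and 6 did at EG day 2 (30%, against 4.45%). On either array 0 lay 2-fold or more below it. Their medians were 0.24 and 0.18 log2. Cd44, a hyaluronan receptor that injured tubules also make, had 8.42 log2 at EG day 5, 8.72 at EG day 2 and 6.36 in the control. Esam, an endothelial junction protein, was higher by 1.08 at EG day 5. At EG day 2 Gcnt1 and St3gal4, glycosyltransferases that help build selectin ligands, were higher by 1.47 and 1.32, and the junction gene Jam2 by 1.41.

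**Figure D4:**
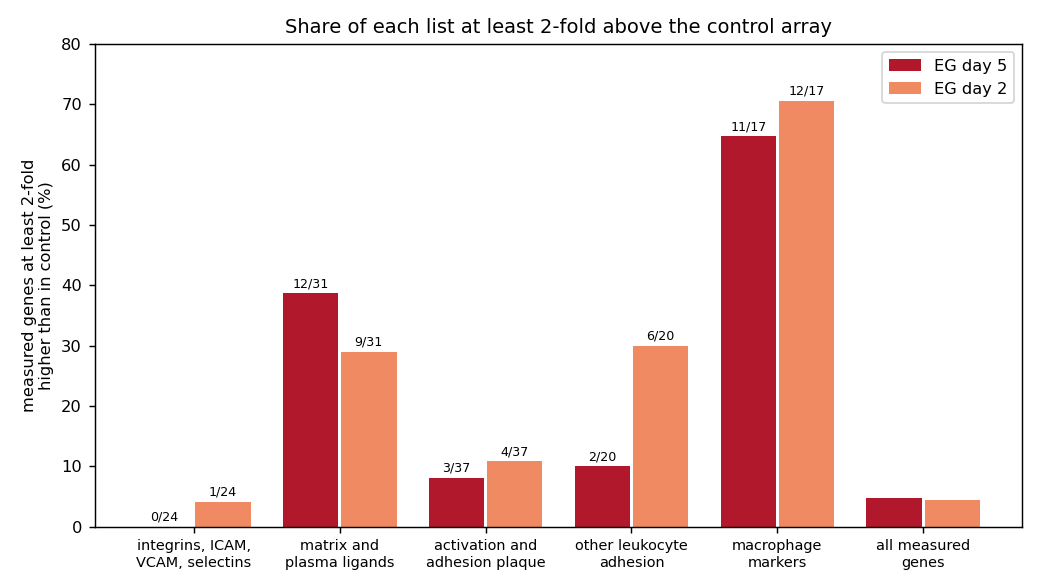
Percent of the measured genes of each list (vertical axis) that were at least 2-fold higher than on the control array, for EG day 5 (left bar) and EG day 2 (right bar); the fractions give genes over measured genes. The measured members (0 of 24 and 1 of 24) lie near all measured genes (4.75% and 4.45%). Matrix and plasma ligands (12 of 31 and 9 of 31) and macrophage markers (11 of 17 and 12 of 17) lie well above them on both arrays. Other leukocyte adhesion lies well above them at EG day 2 (6 of 20) but by few genes at EG day 5 (2 of 20). Activation and adhesion plaque (3 of 37 and 4 of 37) lies above them by few genes on both arrays.

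Set against the EG day 2 array, the EG day 5 array had 0 of 24 members higher by 2-fold or more and 0 lower by 2-fold or more. Over all measured genes 2.21% were higher and 3.34% lower. The member median was -0.12 log2, against -0.03 over all measured genes. Itga6 (-0.98) and Itgb6 (-0.69) were at least 1.5-fold lower at EG day 5, 2 of 24 members against 12.8% of all measured genes, and 0 were at least 1.5-fold higher, against 9.31%. Itgb1 (-0.57) and Itgav (-0.53) came next on the lower side, and Icam1 and Itga9 (0.43 each) had the largest differences on the upper side. Itgb2 (-0.35), Itgal (-0.16) and Itga4 (-0.12) were lower at EG day 5 than at EG day 2. The macrophage markers were split between these arrays, with 9 above 0 and 8 below, a median of 0.05 and a range from -1.13 to 2.13. How these chains relate to the markers was not tested.

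The arrays had similar medians of 6.30 log2 at EG day 5, 6.26 at EG day 2 and 6.21 in the control. All 12 proximal tubule markers reached the background level on every array, and the injury marker Havcr1 had 14.36 at EG day 5, 18.39 at EG day 2 and 5.92 in the control. The share of higher genes among all 2-fold differences from the control was 56.7% at EG day 5, and 43.2% with arrays centred on their medians. At EG day 2 it was 64.5%, and 53.9% after quantile normalization.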

How the data were processed

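Signals came from whole kidney of 3 male rats, 1 array per group. The deposited log2 values, 1 per transcript cluster (the probes assigned to 1 locus), were made with Transcriptome Analysis Console, as its header lines and, per the submitters' processing notes, the labels record. The headers name the rn6 annotation and no filter. How background was corrected, probes summarised and arrays normalized is not given in the sources used, and the scale may stretch or compress differences. Both deposited tables held identical values (69564 of 69564).

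Of 23188 clusters, 21502 named 1 gene and were used. A gene was its brightest cluster over the 3 arrays. The background level, the floor and the 2-fold call are given with the results, and the number of arrays limits the precision. No test was possible with 1 array per group. All 31 members were to be named, and of each pathway list up to 4 genes with the largest differences of at least 2-fold in each comparison. Members and lists were chosen with earlier results of these data known. Alternatives were other background levels, 3 normalizations (cyclic loess in limma 3.58.1, R 4.3.3) and the mean of all clusters. Python 3.11.15 with pandas 2.3.3 and numpy 2.4.6 was used.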

Additional observations from a re-analysis of the deposited data

How the results depend on the processing

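With 1 rat per group no alternative can show how far rats differ, and the number of arrays limits every value. Itga6 stayed at least 2-fold lower at EG day 5 (differences from -1.26 to -1.01) and Itgav at least 2-fold higher at EG day 2 (1.00 to 1.05) under all 6 alternatives. The members at least 2-fold higher at EG day 2 numbered 2 in place of 1 with the lower background level (the olfactory receptor median, 3.75 log2) and with no floor, where Itgax was added (1.13), and 2 with cyclic loess, where Itgb1 was added (1.00). With arrays centred on their medians, 1 member in place of 0 was at least 2-fold lower at EG day 5 than at EG day 2 (Itga6, -1.02). Members at least 1.5-fold lower in that comparison numbered 4 in place of 2 with the lower background level, and 1 with quantile normalization and with cyclic loess. The member medians ranged from 0.17 to 0.27 at EG day 5 and from 0.26 to 0.46 at EG day 2 against control, and from -0.16 to -0.08 between the EG arrays. No called member changed direction. No paired analysis was possible because each group held 1 rat.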
